A study of Mus musculus with 40 samples.

Results

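The receptors of the common gamma chain cytokine family were followed here through mouse CD4+ T cells. The members were 7 genes, *Il2rb*, *Il2rg*, *Il4ra*, *Il7r*, *Il9r*, *Il15ra* and *Il21r*, taken by their symbols out of the 21950 genes in the table, and all 7 were found there. The table held 24 RNA-seq libraries in 8 groups of 3 replicates, and the chromatin samples of the study were not analysed here.

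The cells came from the spleens of C57BL/6-background mice in which a fluorescent reporter marks cells that use *Foxp3*, the gene of the transcription factor that defines regulatory T cells. The methods name a GFP reporter and, for iTregs, an RFP reporter as well, without saying which one each library had. Conventional T cells (Tconvs) and thymus-derived regulatory T cells (tTregs, labelled nTreg) were sorted from mice aged 2 to 4 months, and each was sequenced resting and activated. Induced regulatory T cells (iTregs) were made in culture from naive CD4+ cells of mice aged 6 weeks, with plate-bound antibodies to CD3 and CD28, human TGF-β and recombinant human IL-2. They were induced for 4 days, sorted on the reporter and rested for 1 day, again with IL-2, and were then sequenced resting, restimulated, or restimulated with an inhibitor. IL-2 is itself a cytokine of this family, so the resting iTregs had been given a ligand of the receptors measured. Whether the sequenced Tconvs and tTregs were rested with IL-2 is not stated, although the paper rested them so for other assays. The inhibitors were CM-4620, which blocks ORAI calcium channels, and cyclosporine A (CsA), which blocks calcineurin and thereby NFAT. For CM-4620 the labels give an ORAI inhibitor without its name, and the compound is taken from the paper. The CsA libraries are titled as iTregs, while their cell type label reads Treg. iTregs restimulated with the same inhibitors were stained after 2 days. The sources used here do not state the length of stimulation for the sequenced cells themselves, the inhibitor doses or the animals behind each replicate, so p-values measure only the spread between these libraries.

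Libraries held 5256800 to 15685234 reads on genes, with a median of 10801942, and the floor of detection, set at 3 reads for counting error only, came to 2.12 to 5.45 normalized counts. Treg markers (*Foxp3*, *Ikzf2*, *Lrrc32* and *Ctla4*) summed to 25377 to 26487 normalized counts in resting tTregs, 4643 to 5367 in resting iTregs and 425 to 447 in resting Tconvs. *Foxp3* alone ranged from 7218 to 7767 in resting tTregs, 1178 to 1338 in resting iTregs, 695 to 731 in restimulated iTregs and 9.65 to 11.3 in resting Tconvs. T cell markers (*Cd3e*, *Cd3g*, *Cd4* and *Lck*) summed to 32186 to 33157 in resting Tconvs and 17163 to 21518 in all other groups. On activation of Tconvs, *Cd4* and *Lck* of these were called lower, as were *Cd8b1* of the CD8 T cell markers and *Klrb1c* and *Klrk1* of the NK cell markers, and *Cd79b* of the B cell markers was called higher. Of the Treg markers, *Foxp3*, *Ctla4* and *Lrrc32* were called higher there and *Ikzf2* lower, with a sum of 922 to 987 in activated Tconvs. Activation of tTregs called *Cd3e* lower. Restimulation of iTregs called *Klrk1* higher and *Foxp3* and *Lrrc32* lower. Of the 4 B cell markers, *Ms4a1* was at 0 in all 24 libraries and the sum was 89 to 136 in tTregs and 16 to 44.3 in the other groups. The sum was 0.8 to 25.3 for the 4 myeloid markers, 99 to 236 for the 2 CD8 T cell markers and 0 to 112 for the 3 NK cell markers, with 0 in all tTreg libraries. tTreg libraries had lower totals of normalized counts than the others, at 0.836 and 0.91 of the mean over all libraries when resting and activated, against 1 to 1.06 for the other groups. That difference of scale moves with the comparisons of tTregs with other cells, as do B and NK cell markers, of which none tested was called on activation of tTregs. The part of these markers in the results, and of those that moved on stimulation in any of the cell types, was not tested. In bulk RNA, fewer cells of a type and less RNA per cell cannot be told apart.

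Each receptor of this family is built around one shared chain, the common gamma chain encoded by *Il2rg*, which pairs with a private chain that recognises the cytokine. IL-2 and IL-15 share the beta chain encoded by *Il2rb* and add an alpha chain of their own (*Il2ra* or *Il15ra*), IL-4 uses the chain of *Il4ra*, IL-7 that of *Il7r*, IL-9 that of *Il9r* and IL-21 that of *Il21r*. All signal through the kinases JAK1 and JAK3 to STAT factors. In T cells, IL-7 is known for keeping naive cells alive, while IL-2 is needed for the growth of activated cells and for the upkeep of Tregs.

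The genes lie on 5 chromosomes of GRCm38. *Il2rb* (chr15:78479256-78495271) and *Il7r* (chr15:9505788-9530176) are both on the minus strand of chromosome 15, *Il9r* is at chr11:32187541-32200279 on the minus strand, *Il15ra* at chr2:11705290-11734317 on the plus strand and *Il2rg* at chrX:101264378-101268255 on the minus strand. *Il4ra* (chr7:125552120-125579474) and *Il21r* (chr7:125603429-125633570) are neighbours on the plus strand, 23954 bases apart, with 0 annotated genes lying wholly between them. All 7 are protein-coding. Of the exon bases of *Il2rg*, 30.5% are shared with *Gm20489* on the same strand, and 9.51% of those of *Il4ra* with *Gm44876* on the other strand, so reads there could be split or taken over by these genes.

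RefSeq promoter windows, from 250 bases before to 50 after a start, were found for 6 members. The stretches before the RefSeq start that hold no annotated exon are given for *Il7r*, whose level moved most between Tconv states, for *Il2rg*, whose level moved least, and for the neighbours *Il4ra* and *Il21r*, which both rose in activated Tconvs. For *Il7r* and *Il4ra* the RefSeq start lies downstream of the start of the gene span given above. The *Il7r* stretch is inside its gene span, with annotated exon bases on either side. The other stretches lie before the spans of their genes. They are read 5′ to 3′ along the gene's strand in GRCm38.p6. Capitals mark matches to a STAT-type motif (TTCNNNGAA) or an ETS core (CCGGAA or TTCCGG).
Il7r, chr15:9529942-9530040, minus strand: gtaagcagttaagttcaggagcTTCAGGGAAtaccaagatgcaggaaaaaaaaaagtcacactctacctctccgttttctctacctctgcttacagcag
Il2rg, chrX:101268256-101268505, minus strand: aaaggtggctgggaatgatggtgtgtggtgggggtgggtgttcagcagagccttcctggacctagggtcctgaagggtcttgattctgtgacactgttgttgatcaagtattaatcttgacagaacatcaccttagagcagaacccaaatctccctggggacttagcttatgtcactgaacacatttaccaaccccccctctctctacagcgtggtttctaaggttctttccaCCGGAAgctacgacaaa
Il4ra, chr7:125552021-125552119, plus strand: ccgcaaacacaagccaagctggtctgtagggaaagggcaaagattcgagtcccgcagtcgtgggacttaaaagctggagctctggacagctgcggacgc
Il21r, chr7:125603179-125603251, plus strand: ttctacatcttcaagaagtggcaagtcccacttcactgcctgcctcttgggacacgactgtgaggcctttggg

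The STAT-type match of *Il7r* begins 142 bases before the RefSeq start, within the gene span, and the ETS core of *Il2rg* 17 bases before its RefSeq start. Over all 32851 windows of this length, 8.3% held the STAT-type letters and 14.9% the ETS core on either strand. Of the members' windows, that of *Il7r* alone held the STAT-type letters, and those of *Il2rg* and *Il15ra* held the ETS core. The short NFAT core (GGAAA or TTTCC), present in 61.3% of all windows, was found in those of *Il15ra*, *Il4ra*, *Il7r* and *Il2rg*. These are matches of letters and not sites of binding.

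The mix of private chains was compared first, per kilobase of exon, since levels of different genes can be set against each other only per length. The private chains here are the 6 members other than *Il2rg*, with *Il2rb* counted although IL-2 and IL-15 share it. *Il2ra*, whose level is given further on, was not a member and is left out, so shares and sums with it would differ. In resting Tconvs, *Il7r* made up 82.8% ± 0.335 (SD, n = 3) of the summed level per kilobase of the 6 private chains, and in activated Tconvs 3.19% ± 0.214. The largest shares in activated Tconvs were those of *Il4ra*, at 42.1% ± 0.566, and *Il2rb*, at 39.9% ± 0.721, which held 7.67% and 4.09% in resting Tconvs. In resting tTregs, *Il2rb* held 65.2% ± 0.522 and *Il4ra* 24.7% ± 0.277, and after activation 64.2% ± 1.8 and 27.3% ± 1.9. In resting iTregs the same chains held 52.9% ± 0.866 and 29.5% ± 1.53, and on restimulation 44.8% ± 0.816 and 36.6% ± 0.795. *Il21r* held 3.72% of the mix in resting tTregs and 11.6% in resting iTregs. Shares of a sum are not independent of each other, so these are given as a description with no test.

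**Figure D1:**
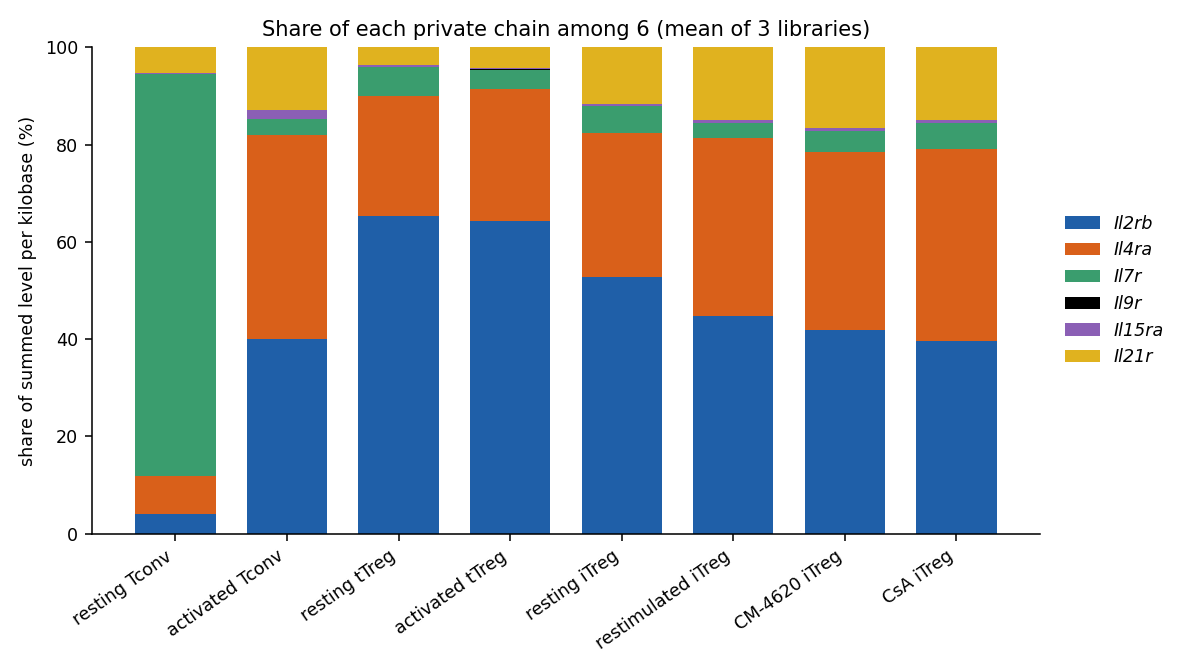
Stacked bars show, for each of the 8 groups on the x axis, the share (%) of each private chain in the summed level per kilobase of 6 private chains (*Il2ra* not included), as means of 3 libraries. The *Il7r* segment fills 82.8% of the resting Tconv bar and 3.19% of the activated Tconv bar, while *Il2rb* and *Il4ra* fill most of every other bar.

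The summed level of these private chains, without *Il2ra*, varied less than its parts. It ranged over the group means from 4140.0 normalized counts per kilobase in CM-4620 iTregs to 5573 in resting tTregs. Set against the shared chain, the sum was 1.03 ± 0.0806 times the level of *Il2rg* per kilobase in activated Tconvs and 1.68 ± 0.0746 times in resting Tconvs. It was 2.88 ± 0.396 times in resting tTregs and 2.88 ± 0.375 times in activated tTregs, the highest of the 8 groups. In resting iTregs it was 1.66 ± 0.295 times and in restimulated iTregs 2.17 ± 0.154 times. The ratio of *Il2rb* alone to *Il2rg* per kilobase ran from 0.069 in resting Tconvs through 0.412 in activated Tconvs and 0.873 in resting iTregs to 1.88 in resting tTregs.

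**Figure D2:**
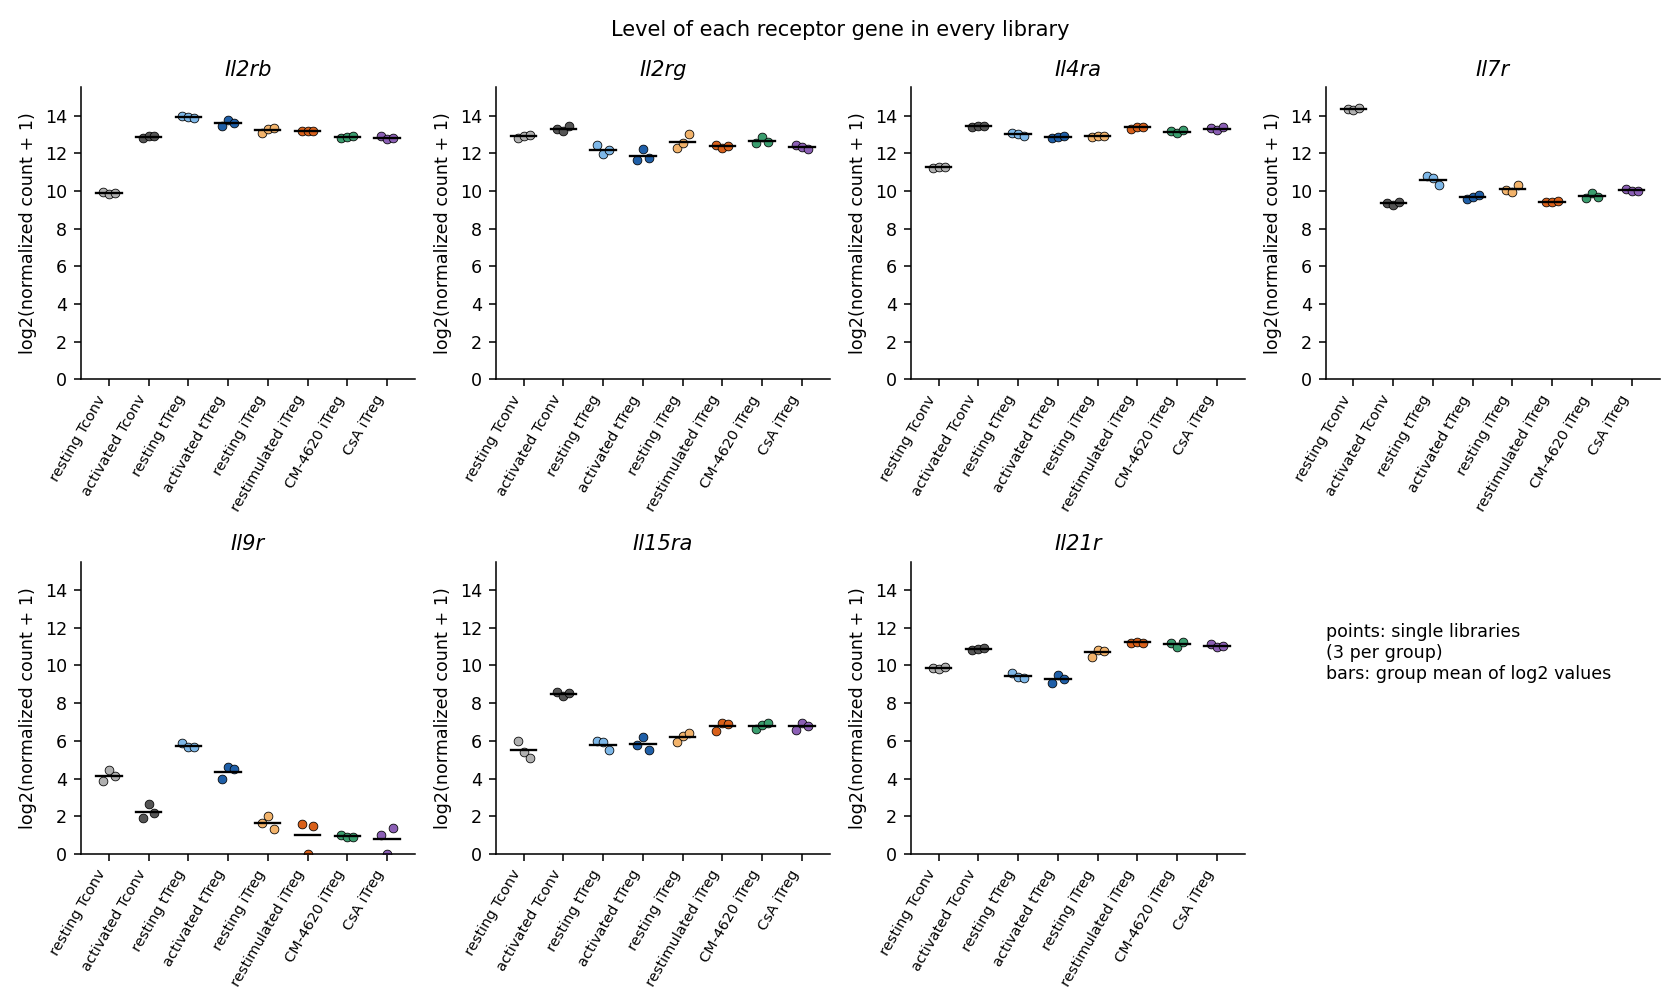
Each panel gives 1 receptor gene, with log2(normalized count + 1) on the y axis and the 8 groups on the x axis. Points are single libraries and bars the mean of 3, and *Il7r* stands highest in the resting Tconv libraries (20013 to 21395 normalized counts), where *Il2rb* stands lowest (916 to 965).

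Differences between groups were tested with limma on log2(normalized count + 1), with Benjamini-Hochberg adjustment over all genes of a fit, and a call needed both an adjusted p under 0.05 and a log2 difference of over 0.5 in size. Fold changes below are on this scale. Activation of Tconvs called 6 of the 7 members, 4 higher and 2 lower, against 50.2% of all 11495 genes tested (24.5% higher and 25.7% lower). Activation of tTregs called 2 of 7, both lower, against 21.9% of all genes (10% lower). With only the compared tTreg groups in the fit, 1447 genes were called for it instead of 2517, and the same members stayed called. Restimulation of iTregs called 3 of the 6 members that could be tested, 2 higher and 1 lower, against 12.8% of 11105 genes (6.7% higher and 6.13% lower). For 6 of the 7 members the response of Tconvs differed from that of tTregs in a test of the difference itself, 5 towards higher values in Tconvs and 1 towards lower, against 34.7% of all genes (17% and 17.7%). These comparisons share groups, since resting Tconvs, resting tTregs and resting iTregs each enter several of them. Because the members were chosen with earlier results of these data known, their counts are a description.

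**Figure D3:**
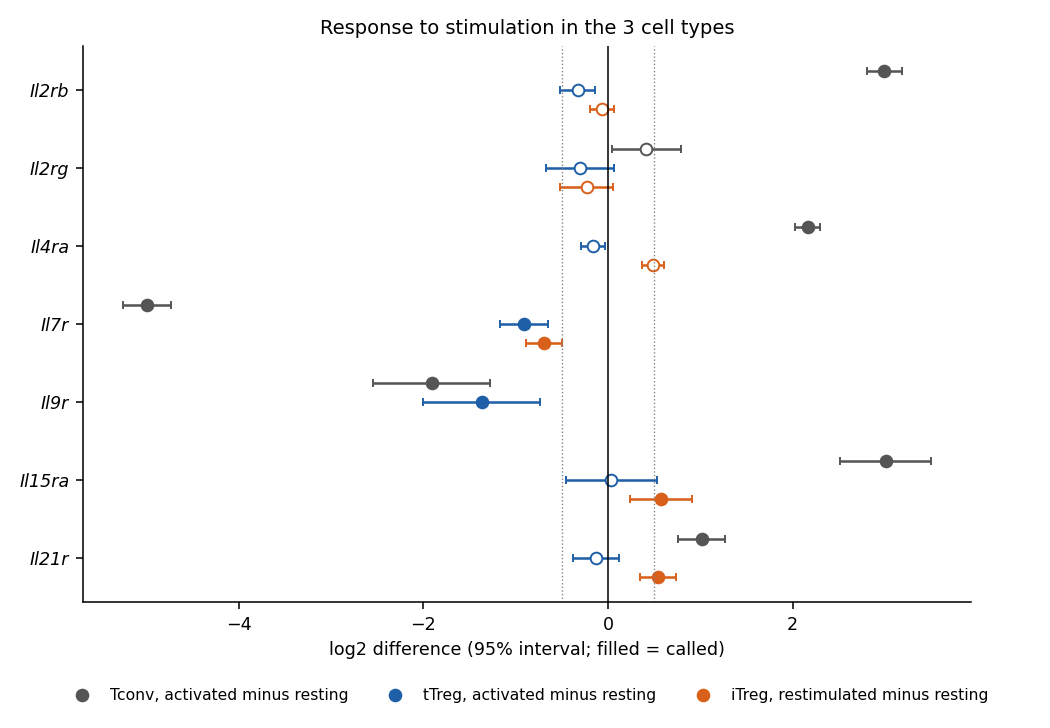
Points give the log2 difference on stimulation for each member in Tconvs, tTregs and iTregs, with 95% intervals from limma, and filled points were called. Dotted lines mark a log2 difference of 0.5, *Il9r* was not tested in iTregs, and the Tconv points for *Il2rb* (2.99), *Il15ra* (3.01) and *Il7r* (−4.99) lie far outside the range of the other cell types.

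*Il2rg*, the shared chain, had the narrowest range of the 7 genes, with a ratio of 2.66 between its highest and lowest group means. Resting Tconv libraries held 7221, 7664 and 7919 normalized counts and activated Tconv libraries 9966, 9389 and 11114. The groups did not overlap, yet the log2 difference of 0.42 ± 0.173 (SE; adjusted p = 0.0488) stayed under the fold threshold. In tTregs the values were 5453, 4016 and 4558 when resting and 3198, 4745 and 3491 when activated, and these overlapped (log2 difference −0.30, adjusted p = 0.187). *Il2rg* was lower in tTregs than in Tconvs, by 1.64-fold when resting (adjusted p = 0.00305) and by 2.7-fold when activated (adjusted p = 5.16e-06). With every library set to the same total, the resting difference was −0.45 on the log2 scale and was no longer called. The difference in response between Tconvs and tTregs was called at 0.72 (adjusted p = 0.0298), but not without the replicates numbered 1 (0.46, adjusted p = 0.216) or 3 (0.64, adjusted p = 0.116).

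Resting iTreg libraries differed more among themselves in *Il2rg* than in any other member above the floor of detection, at 5041, 5857 and 8259.8 normalized counts. Restimulated libraries held 5632, 5049 and 5284, within that range, and the log2 difference was −0.23 (adjusted p = 0.213). The gene whose log2 level followed *Il2rg* most closely over the 24 libraries was *mt-Nd1*, a mitochondrial subunit of complex I, with a Pearson r of 0.92. Its group means ran from 13559 normalized counts in activated tTregs to 54672 in activated Tconvs. Its part in the *Il2rg* differences was not tested.

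*Il2rb*, the beta chain of the IL-2 and IL-15 receptors, was the member whose level differed most between resting tTregs and resting Tconvs. Resting Tconv libraries held 965, 916 and 937 normalized counts, against 16327, 15611 and 14788 in resting tTregs and 8757, 9948 and 10484 in resting iTregs. No library of either Treg group came near the Tconv values. *Il2rb* was 16.6-fold higher in resting tTregs (log2 4.05 ± 0.0897, adjusted p = 4.85e-14) and 10.3-fold higher in resting iTregs (adjusted p = 1.54e-13) than in resting Tconvs. Between the Treg types, resting iTregs held 1.6-fold less than resting tTregs (adjusted p = 6.6e-06).

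On activation, *Il2rb* in Tconvs rose 7.95-fold, to 7112, 7651 and 7679 normalized counts (adjusted p = 1.47e-12). tTregs held 11016, 13800.3 and 12470.0 after activation, all below the resting tTreg libraries. The log2 difference of −0.33 (adjusted p = 0.0111) was under the fold threshold, but with quantile normalization it was −0.63 and was called. In restimulated iTregs the values were 9289, 9297 and 9194, inside the range of the resting libraries (log2 −0.07, adjusted p = 0.452). The responses of Tconvs and tTregs differed by 3.32 on the log2 scale (adjusted p = 1.1e-10). After activation, tTregs still held more than Tconvs (1.66-fold, adjusted p = 6.44e-06).

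The alpha chains that join *Il2rb* behaved differently from each other. *Il2ra*, whose product CD25 gives the IL-2 receptor its high affinity, was on the list of partner chains and not a member. Its group mean rose from 39.7 normalized counts in resting Tconvs to 4351 on their activation, and stood at 6752 in resting tTregs and 11559.9 in resting iTregs. *Il15ra*, which presents and binds IL-15, was low in most groups, with 61.7, 42.2 and 32.5 normalized counts in resting Tconvs, and 61.7, 59.7 and 44.4 in resting tTregs. Activated Tconvs stood alone at 379, 336 and 366, all above every library of the other 7 groups.

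The rise of *Il15ra* in Tconvs was 8.03-fold (log2 3.01 ± 0.23, adjusted p = 3.38e-08), while activated tTregs held 53.9, 71.9 and 45.4, which overlapped the resting values (log2 0.03, 95% interval −0.46 to 0.53). The difference between these responses was 2.97 on the log2 scale (adjusted p = 5.46e-06). Restimulated iTregs held 90.6, 121 and 118 normalized counts against 61.1, 76.7 and 83.5 when resting. The groups did not overlap, and the rise of 1.48-fold was called (adjusted p = 0.0131), although not without the replicates numbered 2 (adjusted p = 0.122) or in a fit of all 24 libraries (adjusted p = 0.0604). The genes most like *Il15ra* over the 24 libraries were *Ifi47* (r = 0.96), *Sp140* (0.95) and *Irgm1* (0.95), the first and the last of them interferon-inducible GTPases. These genes also had their highest group means in activated Tconvs, *Ifi47* at 16779 and *Irgm1* at 5995 normalized counts. Such correlations rest largely on that group and are given as a description.

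*Il7r*, the IL-7 receptor alpha chain, was the member with the largest change on activation. Resting Tconv libraries held 20644, 20013 and 21395 normalized counts and activated ones 658, 604 and 686. The fall of 31.8-fold (log2 −4.99 ± 0.121, adjusted p = 1.86e-13) moved the gene from the 99th to the 72.7th percentile of expression per kilobase among 11625 genes. Resting tTregs were already low, at 1753, 1643 and 1267, which is 13.4-fold below resting Tconvs (adjusted p = 3.32e-12). Their fall on activation, to 746, 822 and 892, was 1.88-fold (adjusted p = 7.12e-05). The responses differed by −4.08 on the log2 scale (adjusted p = 2.42e-10).

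iTregs held 1069, 999 and 1291 normalized counts of *Il7r* when resting, 18.6-fold below resting Tconvs (adjusted p = 2.98e-13). Restimulation lowered it 1.62-fold, to 668, 681 and 711 (adjusted p = 4.41e-05). All resting iTreg libraries stood above all restimulated ones. Activated Tconvs and restimulated iTregs ended at overlapping levels (log2 difference 0.08, 95% interval −0.14 to 0.31). Over the 24 libraries *Il7r* ran against *Il4ra* (r = −0.96) and *Il2rb* (r = −0.87), correlations that rest largely on the separation of the resting Tconv libraries from all others and are given as a description.

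*Il4ra*, which recognises IL-4 and, with another partner, IL-13, was lowest in resting Tconvs, at 2398, 2501 and 2494 normalized counts. Activated Tconvs held 10866, 11050.1 and 11173, a rise of 4.47-fold (log2 2.16 ± 0.063, adjusted p = 1.09e-12). Resting tTregs held 8611, 8303 and 7856, 3.35-fold above resting Tconvs (adjusted p = 1.1e-11), and activated tTregs 7094, 7354 and 7658. That step in tTregs did not pass the test (log2 −0.16, adjusted p = 0.0566), and the responses of the 2 cell types differed by 2.33 (adjusted p = 1.1e-10). After activation the order was turned: tTregs held less *Il4ra* than Tconvs by 0.58 on the log2 scale (adjusted p = 1.76e-06), or by 0.37 with equal library totals, which is under the fold threshold.

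In iTregs, *Il4ra* stood at 7351, 7701 and 7686 when resting and at 10147, 10869 and 10774 when restimulated. These groups did not overlap and the adjusted p was 1.28e-05, but the log2 difference of 0.48 was just under the threshold of 0.5 (0.52 with quantile normalization). The response of iTregs was above that of tTregs by 0.65 on the log2 scale (adjusted p = 4.42e-06), 1 of 2 members for which these responses differed, both higher, against 21.3% of 11725 genes (9.01% higher).

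*Il21r*, the neighbour of *Il4ra* on chromosome 7, rose 2.02-fold in Tconvs, from 925, 905 and 965 normalized counts to 1805, 1891 and 1951 (adjusted p = 2.9e-06). tTregs had the lowest levels of the 3 cell types, with 771, 659 and 638 when resting and 543, 728 and 625 when activated, which overlapped (log2 −0.13, 95% interval −0.38 to 0.12). Unlike *Il4ra*, it was 2.41-fold higher in resting iTregs than in resting tTregs (adjusted p = 1.59e-07), at 1399.7, 1823 and 1774. Restimulation raised it 1.45-fold, to 2374, 2464 and 2372 (adjusted p = 0.000461), the highest group mean of the 8. Without the replicates numbered 1 the log2 difference was 0.43, under the fold threshold. The genes most like *Il21r* were *Lgals3bp* (r = 0.99), *Ly6a* (0.98) and *Prr3* (0.98), and *Il4ra* followed it with an r of only 0.49.

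*Il9r* was close to the limit of detection. Its highest level was in resting tTregs, at 57.1, 50.6 and 50.1 normalized counts, from 63, 39 and 44 reads. Resting Tconvs held 13.4, 20.6 and 16.7, and the level in tTregs was 3.03-fold above them (adjusted p = 0.000369). Activated Tconvs held 2.69, 5.17 and 3.54, from 3, 6 and 5 reads, the first of them at its floor. Activation lowered it in Tconvs (log2 −1.91, adjusted p = 5.01e-05), a size that rests on these few reads. In tTregs it fell 2.58-fold (adjusted p = 0.00272), to 14.8, 23.7 and 21.8. The tTreg call was lost without the replicates numbered 1 (adjusted p = 0.0652). This was the one member for which the responses of Tconvs and tTregs were not found to differ (log2 −0.54, 95% interval −1.43 to 0.35, adjusted p = 0.333). The 12 iTreg libraries held 0 to 3 reads each, at or under the floor, so no fold is given and *Il9r* did not enter the fit of the iTreg groups.

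Between resting cell types, tTregs differed from Tconvs in 5 of 7 members, 3 higher and 2 lower, against 38.6% of all genes (20.5% higher and 18.2% lower). iTregs differed from resting Tconvs in 6 of 7, 4 higher and 2 lower, against 63.6% of all genes (32.8% and 30.8%), a share that leaves little to read from the count. Among the 6, *Il15ra* overlapped between the groups and was not called without the replicates numbered 2 (adjusted p = 0.0937) or 3 (adjusted p = 0.152). From resting tTregs they differed in 3 of 7, *Il21r* higher and *Il2rb* and *Il9r* lower, against 63.4% of all genes (32.3% higher and 31.1% lower). In the counts against resting Tconvs and against resting tTregs, *Il9r* was a lower call with iTreg values at or under the floor of detection. It passed the filter through Tconvs and tTregs only. *Il2rg* joined the members called against resting tTregs without the replicates numbered 1 (log2 0.70) and *Il7r* without those numbered 3 (log2 −0.72). *Il7r* was also called lower with quantile normalization (−0.66) and equal library totals (−0.78), and *Il4ra* with quantile normalization (−0.58). After stimulation, tTregs differed from Tconvs in 6 of 7, 2 higher and 4 lower, against 48.2% of all genes (25.6% and 22.6%). The 4 lower were *Il15ra* (6.33-fold), *Il21r* (3-fold), *Il2rg* and *Il4ra*. Restimulated iTregs differed from activated Tconvs in 3 of 7, all lower, against 44.3% of 11725 genes (20% lower). Those 3 were *Il2rg* (1.91-fold, adjusted p = 1.97e-05), *Il15ra* (3.28-fold, adjusted p = 3.69e-07) and *Il9r*, which rested on 14 reads against 4 and was not called by edgeR or DESeq2 on the recovered reads, nor without the replicates numbered 2. Restimulated iTregs differed from activated tTregs in 5 of 7, 4 higher and 1 lower, against 59.3% of all genes (30.5% and 28.8%). The lower one was *Il9r*, whose restimulated iTreg values were also at or under the floor of detection. Among the higher ones *Il21r* differed most, at 3.83-fold (adjusted p = 5.29e-13). *Il2rg* (log2 0.50) was not called without the replicates numbered 1 (0.34) or 3 (0.45), by edgeR (0.46) or DESeq2 (0.48), or with quantile normalization (0.28) or equal library totals (0.29). The call of *Il4ra* (0.52) was likewise lost with quantile normalization (0.34) and equal totals (0.31). *Il2rb* (−0.42) was under the fold threshold, but was called lower with quantile normalization (−0.76), with equal totals (−0.63) and without the replicates numbered 1 (−0.50). Resting iTregs set against activated Tconvs differed in 4 of 7, 1 higher and 3 lower, against 41.6% of all genes (22.9% and 18.7%), of which *Il15ra* was 4.87-fold lower (adjusted p = 9.46e-07) and *Il7r* 1.72-fold higher (adjusted p = 6.9e-05).

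The inhibitor libraries were set against restimulated and against resting iTregs. No resting iTregs with an inhibitor were sequenced, so an effect on the restimulation change and an effect of the drug by itself cannot be told apart. CsA called 1 of the 6 members tested, *Il7r*, which was higher, against 2.92% of 11105 genes (1.57% higher). The CsA libraries held 1109, 1038 and 1029 normalized counts of *Il7r* and the restimulated libraries 668, 681 and 711, without overlap, a difference of 1.54-fold (log2 0.62 ± 0.0914, adjusted p = 0.000693). The CsA libraries lay within the range of the resting iTregs (log2 difference −0.07, 95% interval −0.27 to 0.12). Without the replicates numbered 1 the adjusted p was 0.0531.

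CM-4620 called 0 of the 6 members with limma, edgeR or DESeq2, against 3.3% of all genes, while 4 members had an unadjusted p below 0.05. Its *Il7r* values were 788, 951 and 819, above every restimulated library, with a log2 difference of 0.31 (95% interval 0.11 to 0.50, adjusted p = 0.0541). The difference between CM-4620 and CsA in *Il7r* was −0.32 (95% interval −0.51 to −0.12, adjusted p = 0.176). No member was called between the inhibitors with limma, edgeR or DESeq2 (0.36% of all genes were), although 3 members had an unadjusted p below 0.05. Beside *Il7r* these were *Il2rg*, at 0.35 (95% interval 0.07 to 0.64, adjusted p = 0.317), and *Il4ra*, at −0.16 (95% interval −0.28 to −0.04, adjusted p = 0.288). The inhibitors act on different targets and their doses are not known here.

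*Il2rb* stood lower with either inhibitor, at 7228, 7494 and 7581 normalized counts with CM-4620 and 7593, 6943 and 7229 with CsA, all under the lowest restimulated library (9194). The log2 differences were −0.32 (adjusted p = 0.00483) and −0.35 (adjusted p = 0.00278), under the fold threshold. The same libraries were also under every resting iTreg library for *Il2rb*. *Il4ra* stood at 9106, 8686 and 9448 with CM-4620, between the resting and the restimulated libraries without overlap (log2 −0.22 against restimulation, adjusted p = 0.0221). With CsA it was at 10256, 9482 and 10641, which overlapped the restimulated values (log2 −0.07, 95% interval −0.19 to 0.05). *Il21r* and *Il15ra*, which had risen on restimulation, were not called against restimulated iTregs with CM-4620 (log2 −0.08 and 0.03) or CsA (−0.18 and −0.01). All 3 CsA libraries of *Il21r* (2255, 1998 and 2126) nonetheless lay under the lowest restimulated one. The 95% intervals for *Il15ra* ran from −0.30 to 0.37 and from −0.35 to 0.32, while that of its rise of 0.57 ran from 0.23 to 0.90. All of these intervals share the restimulated libraries, and the share of the rise left with an inhibitor was not tested. Against resting iTregs, *Il15ra* was the one member called with CM-4620 (log2 0.60, against 7.1% of all genes called and 3.97% called higher) and with CsA (log2 0.56, against 9.43% called and 5.19% called higher). Neither call held without the replicates numbered 2 (adjusted p = 0.103 and 0.153). Without those, *Il21r* (0.60) and *Il7r* (−0.55) were called with CM-4620, and without the replicates numbered 1 *Il2rb* (−0.53) and *Il2rg* (−0.50) were called with CsA.

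**Figure D4:**
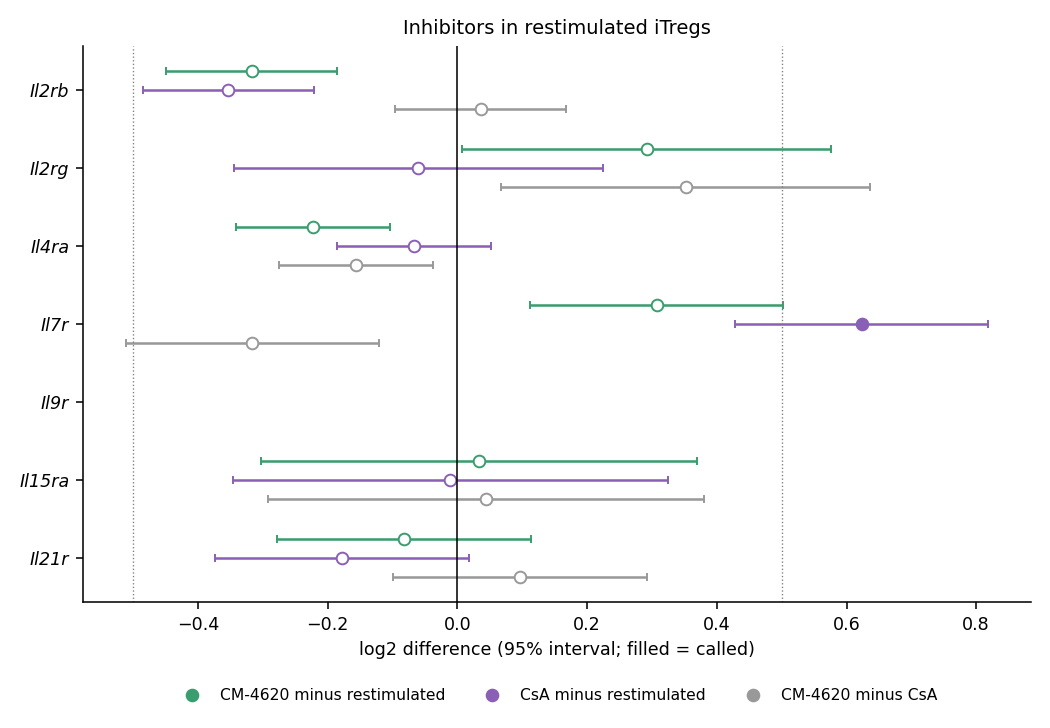
Points give log2 differences in iTregs for each tested member, with 95% intervals from limma: CM-4620 or CsA against restimulation alone, and CM-4620 against CsA. The only filled point, which marks a call, is *Il7r* with CsA at 0.62, and *Il9r* has no points because it was not tested.

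Other genes of the pathway were taken from a list of 29, of which 21 could be tested across the cell types and 23 within iTregs. This list too was chosen with earlier results of these data known, so its counts are a description. On activation of Tconvs 16 of the 21 rose and 2 fell, the latter *Jak1* and *Stat5b*, against 24.5% of all genes called higher and 25.7% lower. All 8 targets of the feedback and survival list rose, among them *Cish* (log2 5.45), an inhibitor of cytokine signalling induced by STAT5, and *Bcl2* (1.75), which protects from cell death. *Jak3*, the kinase bound by the common gamma chain, rose by 2.62 while *Jak1* fell by 1.66. In tTregs 3 of 21 rose (*Jak3*, *Pim2* and *Socs2*) and 2 fell (*Mcl1* and *Foxo1*), close to the shares of all genes, 11.9% higher and 10% lower. *Foxo1*, a transcription factor known to drive *Il7r*, was not called in Tconvs (log2 −0.04, adjusted p = 0.759). *Gfi1*, a repressor of *Il7r*, rose by 3.15 in Tconvs and was at −0.59 in tTregs (adjusted p = 0.0911). *Tbx21* and *Eomes*, also listed as regulators of receptor genes, were called higher on activation of Tconvs and lower in resting tTregs than in resting Tconvs. The part of any of these factors in the receptor differences was not tested.

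In iTregs, restimulation raised 6 of 23 pathway genes and lowered 2, against 6.7% of all genes higher and 6.13% lower. The 3 ligand genes that could be tested all rose, *Il21* by 2.00, *Il9* by 3.17 and *Il4* by 1.36 on the log2 scale. The resting mean of *Il9* was within the floors of the resting iTreg libraries, 2.28 to 3.16, so its size depends on the floor and the pseudocount. *Il21* went from a mean of 242 normalized counts in resting iTregs to 971 in restimulated ones, the groups in which its receptor gene *Il21r* also rose, and was at 0 in all 6 tTreg libraries. *Il9* went from a mean of 2.92 to 33, in cells where its receptor gene *Il9r* was at or under the floor. Each inhibitor called 1 pathway gene higher and 1 lower, *Socs2* and *Tbx21* with CM-4620, and *Pim1* and *Il9* with CsA. Of all genes, CM-4620 called 1.5% higher and 1.79% lower, and CsA 1.57% and 1.35%, and nothing is read from counts of 1. *Il2* itself stayed at 1.14 to 7.2 normalized counts in every library, so transcripts of the cytokine that was added to the culture were barely detected.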

How the data were processed

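RNA-seq libraries had been made by a modified SMART-seq2 protocol, which does not mark strand as far as described. Per the submitters' processing notes and the paper, the authors trimmed reads with cutadapt 1.18, aligned them to mm10 with STAR 2.5.3, counted genes with RSEM 1.3.0 on GENCODE M23 and used DESeq2 1.26. The deposited values are a normalized signal, that is counts divided by 1 size factor per library. In each library 100% of values were whole multiples of the value of 1 read (tolerance 0.001), which gave the reads used for depth and for the count tests. A gene entered a fit when 3 or more of its libraries reached 10 normalized counts, and was tested with limma 3.58.1 (R 4.3.3; trend; pseudocount 1; 2-sided), with Benjamini-Hochberg adjustment. The thresholds (adjusted p below 0.05, absolute log2 fold change above 0.5) are those of the paper. One fit held the 15 libraries of Tconvs, tTregs and resting iTregs, one the 12 iTreg libraries, and one all 24, for restimulated iTregs against other cell types. The procedure was tested on simulated data.

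Replicates differed by 2.69 to 36.3 times the variance of counting, so none was a copy of another. Within tTregs the range was 12.7 to 36.3. Gene positions and exon lengths came from GENCODE M21, which is older than the authors' annotation. The members and gene lists were chosen with earlier results of these data known. The named genes are all 7 members, the pathway lists by counts with examples, and for each member the 3 genes with the highest Pearson correlation over 24 libraries, some of which are printed. Alternatives were other scalings, pseudocounts, filters, sample sets, a replicate block, leaving out each replicate number, other thresholds, edgeR 4.0.16 (quasi-likelihood) and DESeq2 1.42.0 on recovered reads, and equal library totals, which was chosen after seeing the data.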

Additional observations from a re-analysis of the deposited data

Results flagged for a closer look

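Members whose response differed between cell types by a test of the difference itself (limma interaction term, Benjamini-Hochberg adjustment over all genes) are collected here. Between Tconvs and tTregs, the activation response differed on the log2 scale by 3.32 for *Il2rb*, 2.97 for *Il15ra*, 2.33 for *Il4ra*, 1.14 for *Il21r*, 0.72 for *Il2rg* and −4.08 for *Il7r*. In each of these, the change in Tconvs was the larger in size. Between iTregs and tTregs, the response to stimulation differed by 0.65 for *Il4ra* and 0.67 for *Il21r*, the 2 members called of 7, both higher, against 21.3% of all 11725 genes (9.01% higher). In both, the level in iTregs rose or leaned upward while that in tTregs leaned downward. The value for *Il21r* was not called without the replicates numbered 1 (0.37, adjusted p = 0.102), while *Il7r* was called without those numbered 3 (0.50). A call of *Il9r* without the replicates numbered 2 rests on iTreg libraries at or under the floor of 3 reads and is not read here. The 3 cell types were not brought to their resting state in the same way, since iTregs had been activated during induction, and how long each was stimulated is not given in the sources used here.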

How the results depend on the processing

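Of 113 member results, 54 were called, none of which changed sign under any alternative run, and 29 of them were called under every alternative. Of the 59 not called, 30 stayed so throughout. Counts of members called moved by over 1.5 times in the following cases. Quantile normalization gave 4 members for tTreg activation and 5 for resting iTregs against resting tTregs. A filter of 100 gave 1 for tTreg activation, as it left *Il9r* out. A fit of all 24 libraries gave 0 for either inhibitor against resting iTregs. The adjusted p alone gave 5 for resting iTregs against tTregs, 2 for CM-4620 and 2 for CsA against restimulation, 5 and 4 for the same against resting iTregs, and 5 for restimulated iTregs against activated Tconvs. A log2 fold change above 1 gave 1 for tTreg activation, 1 for resting iTregs against activated Tconvs, 2 for restimulated iTregs against activated tTregs, and 0 for restimulation, CsA against restimulation, either inhibitor against resting iTregs, and the response of iTregs against tTregs. Leaving out each replicate number gave 1 to 2 members for tTreg activation, 0 to 1 for CsA against restimulation, 1 to 2 for CM-4620 and 0 to 3 for CsA against resting iTregs, and 1 to 3 for the response of iTregs against tTregs. Beyond what follows from thresholds and from fewer genes or samples, the cause was not tested.

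The labels do not say that a replicate number marks a shared source. In the fit of cell types, deviations from the group means correlated with a mean r of −0.00814 over 30 same-numbered pairs and 0.00399 over 60 others. In iTregs the means were 0.107 over 18 same-numbered pairs, of which 8 were above 0.1, and −0.0536 over 36 others, and 10 of 12 libraries were closest to their own number, a hint from the data that the iTreg numbers may share something. Not every pair passed 0.1, so the samples were treated as sharing only a number. The block moved calls over all genes from 1425 to 1500 for restimulation, from 366 to 420 for CM-4620 and from 324 to 372 for CsA against restimulation. With the replicate block, 6 members were called for Tconv activation, 2 for tTreg activation and 3 for restimulation, and 0 member results gained or lost a call. Equal library totals moved the median of all genes to 0.24 (log2) for tTregs against Tconvs when resting, 0.25 when activated and −0.29 for resting iTregs against tTregs, and the higher and lower calls from 2352 and 2089 to 3499 and 1189, from 2942 and 2593 to 3957 and 1777, and from 3713 and 3580 to 2767 and 4723. For tTreg activation the calls went from 1366 and 1151 to 959 and 1790, for restimulated iTregs against activated tTregs from 3581 and 3371 to 2846 and 4220, and for the response of iTregs against tTregs from 1057 and 1444 to 1460 and 1105. Values under 10 reads limit *Il9r*.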
